A study of Mus musculus with 2 samples.

Results

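Heat shock chaperones of the cytosol and of mitochondria were compared between 2 messenger RNA libraries of LPS-treated mouse peritoneal macrophages. The 37 genes were chosen by name, as chaperones, their co-chaperones and the factors that control them. The rule itself uses no measured value, but earlier results of these data were known when the genes were chosen. Comparisons of the members with all genes are therefore descriptions. Of these, 36 were matched among the 34745 genes with a value, and 35 reached the floor of a mean of 1 FPKM over both libraries (fragments per length of transcript, scaled to all mapped fragments of the library). Dnaja4 was the gene under the floor. Hspa14 was not matched by its Ensembl identifier and is not analysed here. The identifier of Gm45902, a gene model that overlaps it on chromosome 2, stood at 2.47 FPKM (library labelled knockout) against 2.39 FPKM (wild-type library); whether the annotation behind the values counted Hspa14 under that identifier was not tested.

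The study set 1 library labelled Kdm2b-/- against 1 labelled wild type, both of C57BL/6 background. Macrophages of both groups had been drawn into the peritoneal cavity with thioglycollate, were collected after 4 days and received LPS (bacterial lipopolysaccharide) at 100 ng/ml. The sample characteristics give 4 h of LPS and the treatment protocol 3 h. The sources used here do not give the design of the Kdm2b allele, the age of the mice or any pooling of animals. Both libraries had LPS, so the response to LPS itself was not analysed here. With 1 library per genotype there is no spread between animals, so every difference given is one between these libraries and none carries a p-value. Where a pair of values is printed without names, the library labelled knockout comes first and the wild-type library second.

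Chaperones bind unfolded or partly folded proteins and release them in cycles driven by ATP. HSP70 proteins take clients delivered by J-domain proteins, and BAG and HSP110 proteins make HSP70 exchange its nucleotide. HSP90 receives clients from HSP70 through the adaptor Stip1, and the ring-shaped chaperonins enclose a client, CCT in the cytosol and HSP60 with its lid HSP10 in mitochondria. The factor HSF1 switches on many of these genes in stressed cells by binding the heat shock element, a row of alternating GAA and TTC units.

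Few chaperone transcripts stood far apart between the libraries, and the size of a typical difference was that of other genes. The median absolute log2 ratio (FPKM + 1) was 0.21 for the members and 0.21 for all genes past the floor. None of the 35 genes was 2-fold apart. Of the 9038 genes past the floor, 1.88% were, 0.863% being higher and 1.02% lower in the library labelled knockout. A gene was counted as apart by a fixed rule of size on the ratio of FPKM + 1, which understates the ratio of low genes. Hspb8, a small heat shock protein gene, was the single member at least 1.5-fold higher in the library labelled knockout, where 4.7% of all genes were. No member was at least 1.5-fold lower, against 2.8% of all genes, and 7.5% of all genes were 1.5-fold apart in either direction. The members' log2 ratios (library labelled knockout over wild-type library, FPKM + 1) ran from -0.25 to 0.62 with a median of 0.14. The median of all genes past the floor was 0.10. In 29 of the 35, or 82.9%, the libraries were within 1.25-fold of each other, against 70% of all genes. A log2 ratio above 0 was found for 25 members (71.4%) and for 63.2% of all genes; with the libraries scaled to a median log2 ratio of 0 over all genes, the members above 0 numbered 19.

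**Figure D1:**
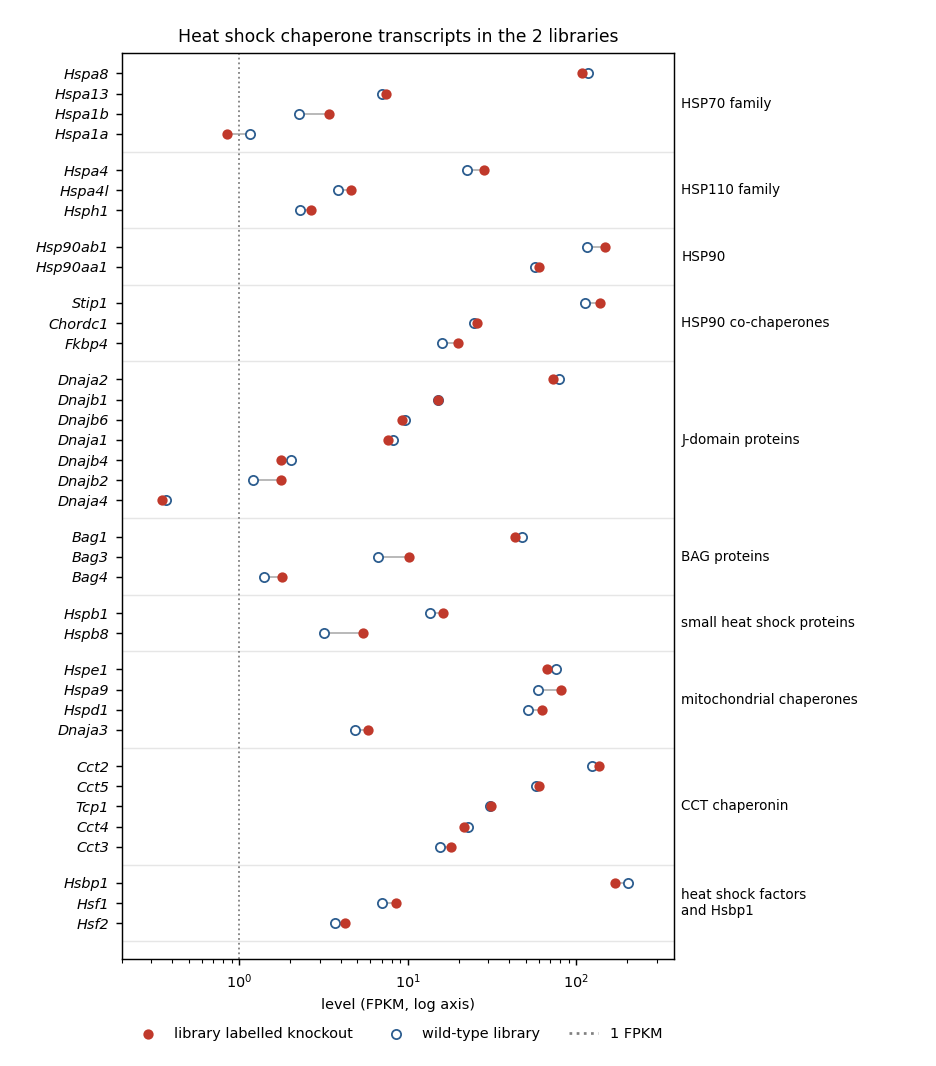
Level of 36 chaperone genes in the library labelled knockout (filled) and the wild-type library (open), in FPKM on a log axis, grouped by role; the grey bar joins the 2 values of a gene and the dotted line marks 1 FPKM. Hsbp1 is the highest in both libraries, Dnaja4 the lowest, and the pairs of points are widest apart for Hspb8, Bag3 and Hspa1b.

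The depths, estimated from the smallest values, were alike, at 26.8 (library labelled knockout) and 27.3 (wild-type library) times 1000000 fragments. Kdm2b itself, the gene named in the genotype, stood at 0.326 and 0.205 FPKM, from an estimated 45 and 29 fragments. The library labelled knockout did not have the lower value, but both values are under the floor. An interval for counting error alone, -0.05 to 1.38 for the log2 FPKM ratio, took in 0, so a difference was not detectable at this depth. A gene-level value does not show single exons, so the genotype was not tested, and directions below are those of a label. All 10 macrophage markers were past the floor, 6 above 0 and 4 below. Their sum of 14314 and 12005 FPKM was mostly Lyz2 (11409 and 8945 FPKM), whereas Cd14 stood at 905 and 1136 FPKM. Of 10 mesothelial and stromal markers, all past the floor, 3 collagen genes were at least 2-fold higher in the library labelled knockout and 3 other genes were below 0 (summed level of the list 389 and 341 FPKM). With a pseudocount of 5 or the trend in length and GC content taken off, 1 of these collagen genes, Col1a1, was still 2-fold higher. Of 8 B cell markers, the 2 past the floor, Igkc and Ighm, were at least 2-fold lower there (summed level 2.87 and 27.4 FPKM). Among 8 neutrophil markers, 1 was past the floor and 3 were listed at 0 in both libraries, and of 8 T and NK cell markers none was past the floor and 6 were at 0. In bulk libraries, a difference in the number of cells of a type and one in RNA per cell cannot be told apart. The log2 ratio also went with transcript length, from a median of -0.27 in the shortest of 20 length classes to 0.29 in the longest.

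Hsf1 and Hsf2, the genes of the heat shock factors, had moderate levels. Hsf1 (ENSMUSG00000022556, chromosome 15, 76477422 to 76501913, GRCm38) stood at 8.54 FPKM (library labelled knockout) against 7.01 FPKM (wild-type library), a log2 ratio of 0.25. The 95% counting interval of its FPKM ratio, which covers counting error only and no spread between animals, ran from 0.13 to 0.44 in log2. Hsf1 was at 0.07 with the trend in length and GC content taken off, and at 0.14 with the libraries scaled to a median of 0. Hsf2 stood at 4.21 and 3.72 FPKM (log2 ratio 0.14), with an interval of -0.01 to 0.36. Hsbp1 encodes a small protein that binds HSF1 and restrains it, and it was the most abundant member in both libraries. It stood at 170 and 202 FPKM, a log2 ratio of -0.25, on a transcript of 1208 bases. Genes of its length class had a median log2 ratio of -0.12. Its ratio of FPKM + 1 was the lowest of the members, but with the trend in length and GC content taken off it was -0.11 and that of Hspa1a, at -0.45, was lower. The remaining heat shock factor genes, Hsf3, Hsf4, Hsf5, Hsf2bp and Hsbp1l1, were all under the floor, at a summed 0.498 FPKM (library labelled knockout) against 0.161 FPKM (wild-type library).

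Heat shock elements were searched in promoters from RefSeq (GRCm38.p6), from 250 bases before to 50 after each start site. No promoter was matched for 8 genes, namely Bag4, Cct4, Hsf1, Hsp90aa1, Hsp90ab1, Hspa13, Hspa8 and Hspa9. Promoters of the other 29 of the 37 genes were matched. An element of 3 units, GAANNTTCNNGAA or its reverse complement TTCNNGAANNTTC, with N for any base, stood in the promoter of 5 of them (17.2%), against 0.662% of all 27025 genes in the table. The stretches of the 5 genes are shown because they are the member promoters that carry the element; capitals mark the units with the bases between them, and each is written in the direction of its gene.
Hspe1: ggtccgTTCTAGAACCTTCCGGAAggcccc
Hspd1: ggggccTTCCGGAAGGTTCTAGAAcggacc
Chordc1: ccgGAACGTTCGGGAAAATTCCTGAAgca
Dnajb6: ctccgaGAATCTTCCGGAAcgctag
Hsph1: tgcagaTTCTGGAAAGTTCtcctca
Hspe1 and Hspd1 share 1 stretch, chr1:55088053-55088082, read from opposite strands. It lies before the RefSeq start site of Hspe1 and before the downstream RefSeq start site of Hspd1. It lies after the upstream start site of Hspd1, whose searched window (chr1:55088194-55088493) held no element. The stretch is inside the Hspd1 gene as GENCODE annotates it, in an annotated exon. The others lie at chr9:18292260-18292288 (plus strand) for Chordc1, chr5:29735846-29735870 (plus strand) for Dnajb6 and chr5:149636282-149636306 (minus strand) for Hsph1. The 5 genes had log2 ratios from -0.18 (Hspe1) to 0.26 (Hspd1), with a median of 0.06. The 22 members past the floor whose matched promoter held no 3-unit element had a median of 0.18 and ran from -0.25 to 0.62. Both groups therefore spanned 0, and the members with the element stood at neither end. The 2-unit form, GAANNTTC or TTCNNGAA, which also lies inside the longer element, was found for 16 of 29 members (55.2%) and 17.0% of all genes. Some members without the 3-unit element, among them Hspa1a, Hspa1b, Bag3 and Hspb1, hold the 2-unit form. Whether the split by the 3-unit element divides targets of HSF1 from other genes was not tested. A match of letters is a description and does not show binding.

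Hspa8, the constitutive HSC70, held most of the summed FPKM of the 4 genes of the HSP70 role, which leaves out the mitochondrial Hspa9 and the Hspa5 of the endoplasmic reticulum. It stood at 108 FPKM (library labelled knockout) against 118 FPKM (wild-type library), a log2 ratio of -0.12 with a counting interval of -0.17 to -0.08. Hspa1a and Hspa1b, the strongly heat-inducible HSP70 genes, were low in both. Hspa1b had 3.39 and 2.25 FPKM (log2 ratio 0.44, counting interval 0.31 to 0.88). Hspa1a had 0.842 and 1.16 FPKM (log2 ratio -0.23), from an estimated 67 and 94 fragments. Its counting interval, -0.94 to 0.003, took in 0. The copies thus had ratios of opposite sign, but the difference of Hspa1a was not detectable at this depth. Their transcripts align over 2197 bases with 99.3% identity, and 61.7% of the stretches of 75 bases in Hspa1a also occur in another gene, most often Hspa1b, so the division of reads between them is uncertain. Their promoters hold the same 2-unit element with the same bases around it, shown here because the copies could not be told apart there either.
Hspa1a: ctgctgGAAGATTCctggcc
Hspa1b: ctgctgGAAGATTCctggcc
These stretches lie at chr17:34972247-34972266 and chr17:34959329-34959348, both on the minus strand. Summed, the copies stood at 4.24 FPKM (library labelled knockout) against 3.41 FPKM (wild-type library), from an estimated 322 and 266 fragments. The log2 ratio of the sum was 0.25 and its counting interval ran from 0.06 to 0.54. Within a library, the summed inducible copies came to 0.0392 of the Hspa8 level in the library labelled knockout and to 0.0289 in the wild-type library. The first ratio was 1.34 times the second in estimated fragments (counting interval 1.14 to 1.58). Hspa8 shares 41.3% of its stretches with other genes, most often Gm15459, and this ratio is uncertain for that reason too. Hspa13, an HSP70 relative known from microsomes, stood at 7.39 and 7.01 FPKM (log2 ratio 0.07).

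The 3 HSP110 genes, whose products reset the nucleotide of HSP70, had positive log2 ratios within 1.25-fold. With the trend in length and GC content taken off, Hspa4 was at 0.11, Hspa4l at 0.03 and Hsph1 at -0.05. Hspa4, the most abundant, stood at 28.2 FPKM (library labelled knockout) against 22.6 FPKM (wild-type library), a log2 ratio of 0.31 with a counting interval of 0.25 to 0.40. Hspa4l stood at 4.62 and 3.84 FPKM (0.22), on the longest transcript of all members (9479 bases), in a length class with a median log2 ratio of 0.29. Hsph1, the heat-inducible HSP105, stood at 2.66 and 2.30 FPKM (0.15), with a counting interval of -0.01 to 0.44. The inducible Hsph1 was at 0.0943 of the Hspa4 level in the library labelled knockout and 0.102 in the other, and the ratio of these shares had a counting interval of 0.787 to 1.09, which takes in 1.

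HSP90 is made from a heat-inducible gene, Hsp90aa1, and a constitutive one, Hsp90ab1. Hsp90ab1 (ENSMUSG00000023944, chromosome 17, 45567775 to 45573271) stood at 147 FPKM (library labelled knockout) against 116 FPKM (wild-type library), a log2 ratio of 0.35 with a counting interval of 0.31 to 0.39. Hsp90aa1 stood at 60.3 and 56.9 FPKM (0.08), with an interval of 0.03 to 0.14, and its log2 ratio was below 0 with the libraries scaled to a median of 0. The constitutive gene was thus the higher of the pair in both libraries, and it also had the larger ratio between them. The level of Hsp90aa1 was 0.409 of that of Hsp90ab1 in the library labelled knockout and 0.491 in the wild-type library. The first was 0.832 times the second, with a counting interval of 0.793 to 0.874. Of the stretches of Hsp90aa1, 53.1% occur in other genes, most often the gene model Gm12346, against 0.736% for Hsp90ab1, so the value of Hsp90aa1 is the less certain.

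Co-chaperones of HSP90 differed in size of ratio but all lay above 0, apart from Chordc1 with the trend taken off (-0.09) or with other scalings. Stip1, the adaptor between HSP70 and HSP90, was among the most abundant members, at 138 FPKM (library labelled knockout) against 113 FPKM (wild-type library), a log2 ratio of 0.29 with a counting interval of 0.24 to 0.34. Fkbp4, an immunophilin that serves steroid receptors bound to HSP90, stood at 19.9 and 15.9 FPKM (0.30, and 0.13 with the trend taken off). Chordc1, an HSP90-binding protein gene, stood at 25.6 and 24.6 FPKM (0.06), and its counting interval of -0.01 to 0.12 took in 0. Of 16 further HSP90 co-chaperone genes, all past the floor, 9 were above 0 and 7 below, with a median of 0.06. None was 1.5-fold apart. Fkbp5, a glucocorticoid-responsive relative of Fkbp4, stood at 2.40 and 1.35 FPKM (0.53), and Sugt1, which couples HSP90 to innate immune receptors, at 50.3 and 68.5 FPKM (-0.44). Fkbp5 passed 1.5-fold with a pseudocount of 0.1 (0.79) and at equal totals (0.60), and Sugt1 with the trend taken off (-0.63). Fkbp5 was lower with the trend taken off (0.37) and with a pseudocount of 5 (0.22). Ppid had a log2 ratio of 0.31 and Unc45a one of 0.31. With the trend taken off, Ppid was at 0.24 and Unc45a at 0.03.

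**Figure D2:**
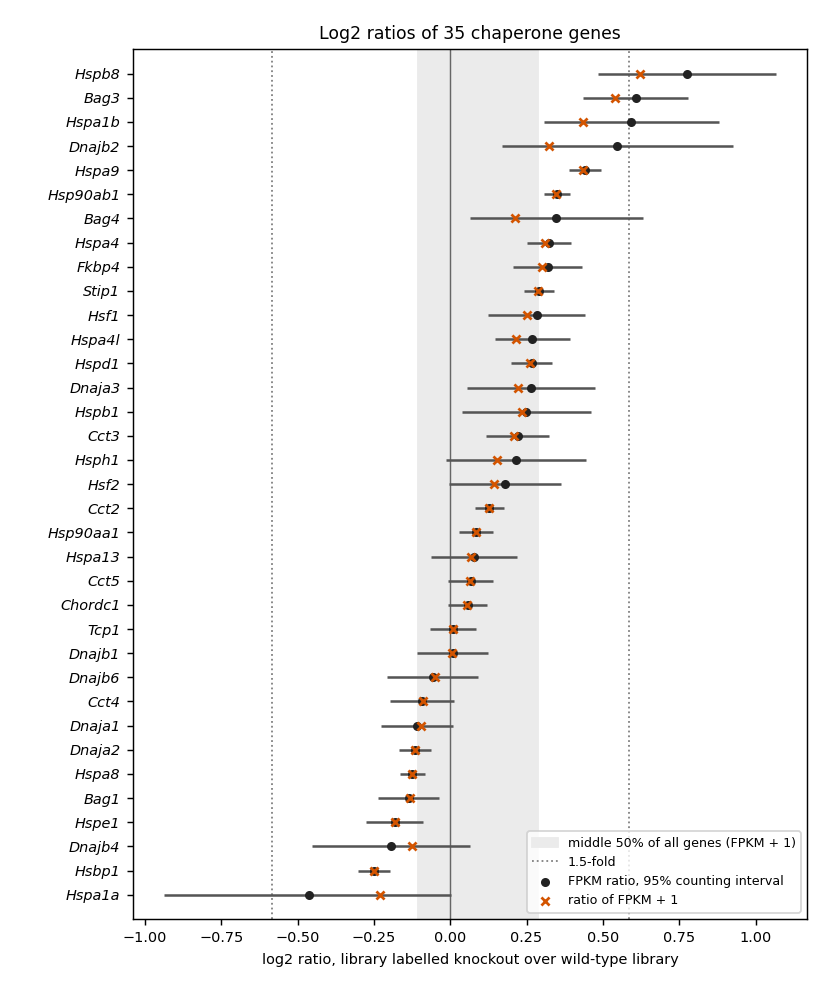
Log2 ratio of each of the 35 chaperone genes past the floor, library labelled knockout over wild-type library: circles show the FPKM ratio with its 95% counting interval and crosses the ratio of FPKM + 1. The shaded band holds the middle 50% of all genes and the dotted lines mark 1.5-fold; the cross of Hspb8, at 0.62, is the only one beyond a dotted line.

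J-domain proteins, which bring clients to HSP70 and trigger its ATP hydrolysis, had the lowest median of the 10 roles (6 genes past the floor, -0.07). Dnaja2 was by far the most abundant, at 73.1 FPKM (library labelled knockout) against 79.2 FPKM (wild-type library), a log2 ratio of -0.11 with a counting interval of -0.17 to -0.06. Dnajb1, the heat-inducible HSP40, stood at 15.08 and 15.004 FPKM (0.01), with an interval of -0.11 to 0.12. Dnajb6, known for holding back protein aggregates, stood at 9.24 and 9.61 FPKM (-0.05) and Dnaja1 at 7.58 and 8.17 FPKM (-0.10). Both take in stretches that other genes share, 39.5% in Dnajb6 and 26.2% in Dnaja1. The low members were Dnajb4 at 1.77 and 2.02 FPKM (-0.13), Dnajb2 at 1.76 and 1.21 FPKM (0.32) and Dnaja4 at 0.346 and 0.365 FPKM. Dnajb2 had the largest ratio of the 6 J-domain members past the floor, from an estimated 145 and 101 fragments. Its counting interval was wide, from 0.17 to 0.93. With the trend in length and GC content taken off it was at 0.13, and Dnajb4 was at -0.26. Of 16 further J-domain genes past the floor, out of 17 listed, 13 were above 0 and 0 were 1.5-fold apart (median 0.08). Dnajc13, which acts in endosomal traffic, had a log2 ratio of 0.41, Dnajc24 one of -0.37, Dnajc16 one of 0.34 and Dnajc17 one of -0.24. In the same order, these were 0.16, -0.16, 0.07 and -0.10 with the trend taken off.

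BAG proteins and small heat shock proteins held the 2 largest ratios of the whole set, those of Hspb8 and Bag3. Hspb8 encodes a small heat shock protein that works with BAG3 to pass misfolded clients to autophagy. Hspb8 (ENSMUSG00000041548, chromosome 5, 116408491 to 116422864) stood at 5.41 FPKM (library labelled knockout) against 3.17 FPKM (wild-type library), from an estimated 264 and 157 fragments. Its log2 ratio of FPKM + 1 was 0.62, larger in size than that of 93.9% of all genes, and the counting interval of the FPKM ratio ran from 0.48 to 1.07. It lay just past the line of 0.58 that marks 1.5-fold, and it was 0.52 with the libraries scaled to a median of 0, 0.57 at equal upper quartiles and 0.35 with a pseudocount of 5, which are under it. With the trend in length and GC content taken off it was 0.60.

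Bag3 lay just inside that line. Bag3 (ENSMUSG00000030847, chromosome 7, 128523616 to 128546981) stood at 10.2 FPKM (library labelled knockout) against 6.68 FPKM (wild-type library), a log2 ratio of 0.54 with a counting interval of 0.43 to 0.78. With a pseudocount of 0.1 it was 0.60 and at equal totals 0.63, both past 1.5-fold. It was further inside the line at equal upper quartiles (0.49) and with a pseudocount of 5 (0.38). With the libraries scaled to a median of 0, or with the trend in length and GC content taken off, it was 0.42. No stretch of Hspb8 or of Bag3 is shared with another gene. The other BAG genes went apart: Bag4, which holds back death receptors of the TNF family, had 1.79 and 1.41 FPKM (0.21) and Bag1, a nucleotide exchange factor of HSP70, 43.3 and 47.6 FPKM (-0.13). Hspb1, encoding HSP27 (HSP25 in the mouse), stood at 16.1 and 13.5 FPKM, a log2 ratio of 0.23 on a transcript of 930 bases, whose length class had a median of -0.20. A pseudogene, Hsp25-ps1, is the most frequent partner of the 47.3% of its stretches that occur elsewhere. The promoters of Hspb8, Bag3, Hspb1 and Cct2 (log2 ratio 0.13) hold the same 2-unit element, GAAGTTTC in capitals (1 of 2 elements in Hspb1). The share of all promoters with these exact letters was not counted, while any 2-unit form was found for 17.0% of all genes. The stretches are shown for the genes with the larger ratios in these roles and for Cct2, whose ratio was small.
Hspb8: ccaggaGAAGTTTCtaggct
Bag3: ggaccaGAAGTTTC
Hspb1: acaagaGAAGTTTCcagatg
Cct2: agtgaaGAAGTTTCtagcag
The stretches lie at chr5:116422849-116422868 (minus strand), chr7:128523619-128523632 (plus strand, ending where the searched window ends), chr5:135887796-135887815 (plus strand) and chr10:117063404-117063423 (minus strand). Those of Hspb8 and Bag3 lie after the start site and that of Hspb1 before it. That of Cct2 lies before the downstream RefSeq start site and after the upstream one, whose searched window held no 2-unit element.

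Among small heat shock protein genes outside the 37, Cryab, which encodes alpha-B crystallin, was the most abundant and the furthest apart. It stood at 106 FPKM (library labelled knockout) against 61.4 FPKM (wild-type library), a log2 ratio of 0.78 with a counting interval of 0.70 to 0.87. It was the 1 gene at least 1.5-fold apart of 60 past the floor in the lists of further cytosolic and mitochondrial chaperone genes. Cryaa, the lens crystallin gene, stood at 1.67 and 2.66 FPKM (-0.46, and -0.64 with a pseudocount of 0.1), and Hspb2, the neighbour of Cryab, at 1.87 and 1.75 FPKM (0.06). Small heat shock protein genes are also expressed in stromal and mesothelial cells, and markers of these cells differed between the libraries. Of the 10 such markers, 7 were above 0, and Col1a1 stood at 15.98 and 3.63 FPKM (1.87), Col1a2 at 24.2 and 9.67 FPKM (1.24), Col3a1 at 22.9 and 9.54 FPKM (1.18) and Lrrn4 at 15.6 and 10.3 FPKM (0.55). With the trend in length and GC content taken off, Col1a2 was at 0.96 and Col3a1 at 0.89. Below 0 were Msln at 2.77 and 4.32 FPKM (-0.50), Lum at 9.46 and 12.4 FPKM (-0.35) and Krt19 at 12.9 and 16.2 FPKM (-0.31), each with a counting interval below 0. The stromal marker Dcn stood at 251 and 248 FPKM (0.02), so neither the mesothelial nor the stromal markers went one way. The part of these cells in the values of Hspb8, Bag3 and Cryab was not tested.

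**Figure D3:**
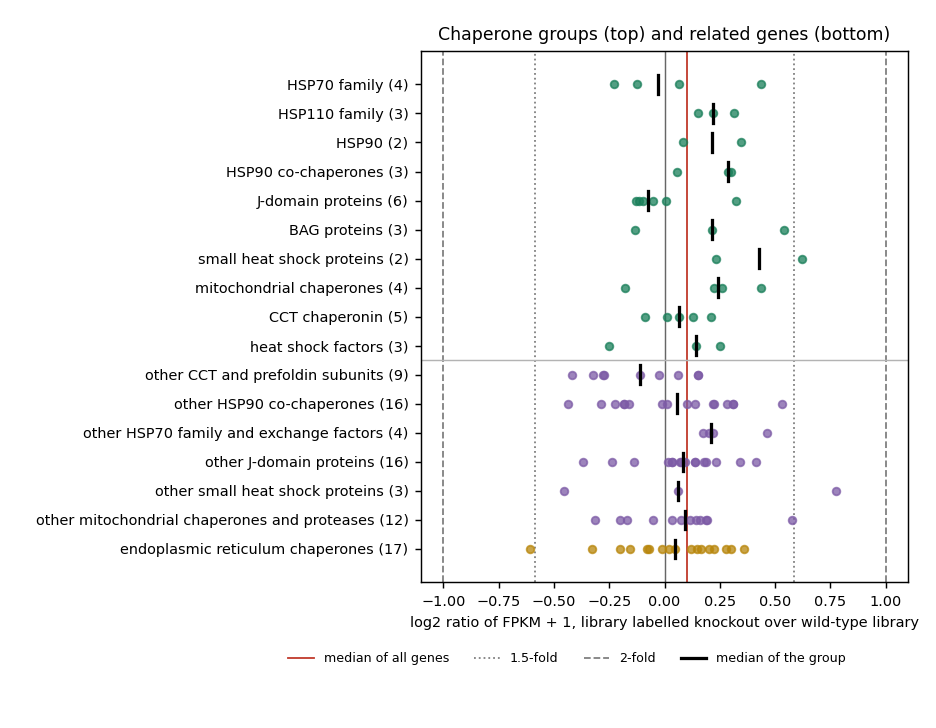
Log2 ratio of FPKM + 1 (library labelled knockout over wild-type library) of each gene past the floor, by role for the chaperones (top, green), in lists of further cytosolic and mitochondrial chaperone genes (purple) and for chaperones of the endoplasmic reticulum (gold); black bars are group medians, the red line is the median of all genes at 0.10, and numbers in brackets are genes. Hspb8 and Cryab lie beyond the upper 1.5-fold line, Hspa5 beyond the lower one, and no gene reaches 2-fold.

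Mitochondrial chaperones had mostly positive log2 ratios, with the HSP10 gene as the exception. Hspa9, the mitochondrial HSP70 that pulls imported proteins into the matrix, stood at 80.6 FPKM (library labelled knockout) against 59.4 FPKM (wild-type library), a log2 ratio of 0.43 with a counting interval of 0.39 to 0.49. Hspd1, the HSP60 chaperonin, stood at 62.3 and 51.8 FPKM (0.26, interval 0.20 to 0.33). Hspe1, its HSP10 lid, stood at 66.6 and 75.6 FPKM (-0.18, interval -0.28 to -0.09). Dnaja3, a J-domain partner of Hspa9, stood at 5.79 and 4.83 FPKM (0.22).

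The partners Hspd1 and Hspe1 went apart. They lie head to head on chromosome 1, overlapping in GENCODE (55077835 to 55088243 and 55088132 to 55091307), and share the heat shock element printed above. Within a library, Hspd1 was at 0.934 of the Hspe1 level in the library labelled knockout and at 0.685 in the wild-type library. The first was 1.36 times the second (counting interval 1.26 to 1.48). Their longest transcripts differ in length, 2423 bases for Hspd1 and 964 bases for Hspe1, and their length classes had median log2 ratios of 0.06 and -0.20. With the trend in length and GC content taken off, Hspe1 was at 0.06 and Hspd1 at 0.21. Their first exons overlap on opposite strands, no strand marking is described for these libraries, and 33.7% of the stretches of Hspd1 occur in other genes, most often the pseudogene Hspd1-ps3, so both values carry that uncertainty.

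Of 12 further mitochondrial chaperone and protease genes past the floor, 8 were above 0 and none was 1.5-fold apart (median 0.09). Lonp1, the matrix protease that degrades damaged proteins, came closest, at 14.0 and 9.05 FPKM (0.58), and passed 1.5-fold with a pseudocount of 0.1 (0.62) and at equal totals (0.66). It lies in a class of long transcripts and was at 0.29 with the length and GC trend taken off. Dnajc15 stood at 63.7 and 79.4 FPKM (-0.31), Grpel1, which exchanges the nucleotide of Hspa9, at 18.9 and 21.9 FPKM (-0.20), and Hscb, which serves iron-sulphur cluster assembly, at 5.18 and 4.41 FPKM (0.19).

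**Figure D4:**
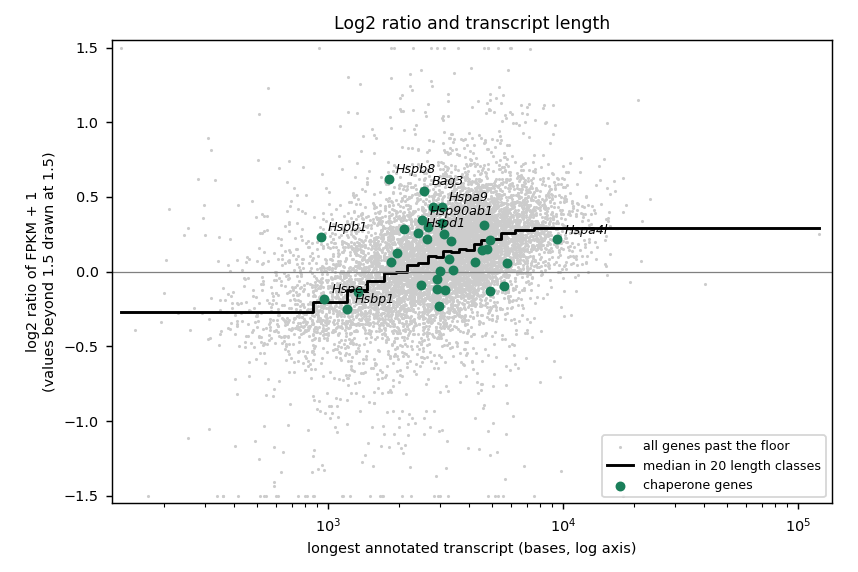
Log2 ratio of FPKM + 1 (library labelled knockout over wild-type library) against the length of the longest annotated transcript on a log axis, for all genes past the floor (grey) and the 35 chaperone genes (green); the black steps are medians of 20 length classes, from -0.27 to 0.29. Hspb1 and Hspb8 lie above the median of their class, and Hspe1 and Hsbp1 lie below 0 among short transcripts.

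Subunits of CCT, the cytosolic chaperonin that folds actin and tubulin, were all within 1.25-fold between the libraries. Each ring holds every subunit the same number of times, yet the transcript levels within a library were far from equal. Cct2 was the highest of the 8 subunit genes, at 136 FPKM (library labelled knockout) against 125 FPKM (wild-type library), a log2 ratio of 0.13. Cct3 was the lowest, at 18.1 and 15.5 FPKM (0.21). The highest over the lowest was 7.54-fold in the first library and 8.04-fold in the second. The other subunits among the 37 were Cct5 at 60.2 and 57.5 FPKM (0.07), Tcp1 at 31.0 and 30.8 FPKM (0.01) and Cct4 at 21.4 and 22.8 FPKM (-0.09). Cct6a, Cct7 and Cct8, outside the 37, had log2 ratios of 0.15, 0.15 and 0.06. Set against the mean of the 8 subunits in its own library, each subunit kept its share within a factor of 0.878 (Cct4) to 1.09 (Cct3). Levels of different genes here rest on gene-level FPKM and on the transcript length behind it, which is uncertain for genes with many transcripts such as Tcp1 with 12.

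**Figure D5:**
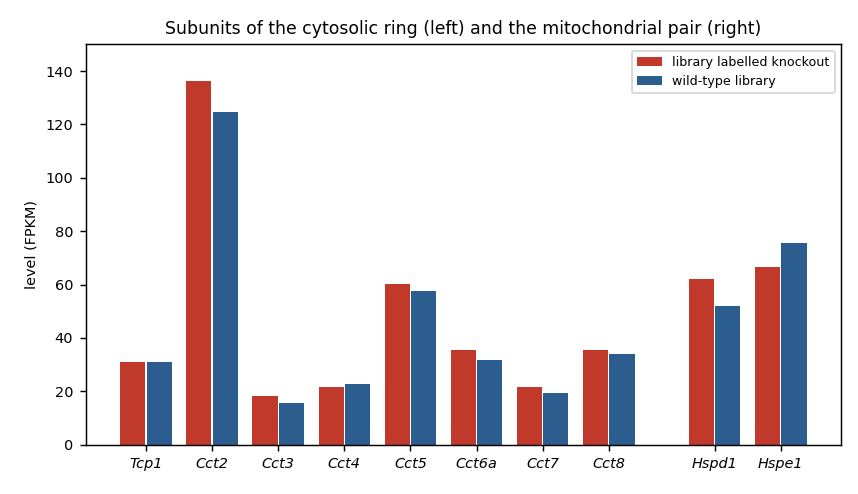
Levels in FPKM of the 8 subunit genes of CCT (left) and of Hspd1 and Hspe1 (right) in the library labelled knockout (red) and the wild-type library (blue), 1 library each, so without error bars. Cct2 stands far above the other CCT subunits in both libraries, and Hspd1 and Hspe1 differ in opposite directions.

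Prefoldin, which hands unfolded actin and tubulin to CCT, had its 4 genes furthest apart on the other side of 0. These were Pfdn1 at 39.5 and 53.1 FPKM (log2 ratio -0.42), Pfdn5 at 73.1 and 91.7 FPKM (-0.32), Pfdn2 at 15.4 and 18.9 FPKM (-0.28) and Vbp1 at 22.6 and 27.5 FPKM (-0.27). Their transcripts are short, from 1062 to 1735 bases, and with the length and GC trend taken off they stood at -0.21, -0.18, -0.25 and -0.10. Of the list of 10 further CCT and prefoldin genes, 9 were past the floor, with a median of -0.11, which was 0.05 with the trend taken off. Further HSP70 relatives and exchange factors (4 of 8 past the floor) had a median of 0.21, led by Bag6, which guards newly made membrane proteins, at 4.71 and 3.14 FPKM (0.46). Bag5 (0.22), Hspa2 (0.20) and Hspbp1 (0.18) followed. With the trend taken off, Bag6 was at 0.18 and Bag5 at 0.23.

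Chaperones of the endoplasmic reticulum, which answer to the unfolded protein response and not mainly to HSF1, were set beside them. All 17 listed were past the floor, with 10 above 0, a median of 0.05 and 14 within 1.25-fold (82.4%). Hspa5, the HSP70 of this compartment (BiP), was the 1 gene at least 1.5-fold apart, at 73.7 FPKM (library labelled knockout) against 113 FPKM (wild-type library), a log2 ratio of -0.61 with a counting interval of -0.66 to -0.57. It was short of 1.5-fold at equal totals (-0.51) and just short with a pseudocount of 5 (-0.58). Among HSP70 genes, log2 ratios were thus -0.61 for Hspa5, -0.12 for Hspa8 and 0.43 for the mitochondrial Hspa9. Cytosolic HSP70 genes also differed among themselves, with Hspa1b at 0.44 and Hspa1a at -0.23, so these values give no order of compartments. Hyou1 (0.36), Sdf2l1 (-0.33) and Canx (0.30) were the next furthest apart. With the trend in length and GC content taken off, they stood at 0.11, -0.23 and 0.20. The difference between these chaperones and the cytosolic and mitochondrial ones was not tested.

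The depth behind the members varied widely. The counting interval of the FPKM ratio left out 0 for 23 of the 35 members (65.7%), 18 above and 5 below. Among all genes with an annotated length it did so for 63.3%, with 43% above and 20.4% below. Estimated fragments behind a member's value ran from 67 (Hspa1a in the library labelled knockout) to 10153 (Hspa8 in the wild-type library). For the 12 genes whose interval took in 0, a difference was not detectable at this depth. Stretches of 75 bases shared with another annotated gene made up at least 25% of the longest transcript in 9 of the 36 genes, and exons of 10 overlap another annotated gene on either strand. The 27 members past the floor with less sharing had a median log2 ratio of 0.15, with 21 above 0 and Hspb8 as the 1 gene past 1.5-fold. Dissociation of tissue is known to raise immediate-early genes along with heat shock genes. Of 12 listed, 10 were past the floor, with a median of 0.03 and none 1.5-fold apart, and the largest ratio belonged to Atf3, at 101 and 152 FPKM (-0.58), which passed 1.5-fold with a pseudocount of 0.1, with the libraries scaled to a median of 0 (-0.71), at equal upper quartiles (-0.64) and with the trend taken off (-0.61). It was followed by Jund (0.40), Jun (-0.34) and Egr1 (0.18). Both libraries had also received LPS, and what lay behind the levels of these genes was not tested.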

How the data were processed

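Gene-level FPKM, as the authors deposited them per the file headers, were the only values. HISAT2 2.0.4, StringTie 1.3.0, edgeR and the builds GRCm38.p4 and mm10 appear in the submitters' processing notes, with no role for each. No source used here gives the annotation release or filters. By the labels' protocols, poly-A RNA was copied with random primers into paired-end libraries. FPKM is relative to all mapped fragments, so a few abundant genes move every other value.

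Symbols, coordinates and lengths (longest transcript) came from GENCODE M21 (GRCm38); 34344 of 34745 identifiers matched. Log2 ratios of FPKM + 1 were taken in Python 3.11.15 over the 9038 genes whose mean reached 1 FPKM and read by fixed folds of 2 and 1.5. The value of 1 fragment was estimated from genes with 1 transcript and under 20 fragments: FPKM times length was a whole multiple, within 0.02, for 92.6% of 1523 genes in the library labelled knockout and 92.3% of 1461 in the wild-type library. Fragments rounded from these values gave exact Clopper-Pearson 95% intervals. They cover counting error only, and for genes with several transcripts depend on the assumed length. Of the 36 matched members, 4 have 1 transcript. Where a gene's reads come from shorter transcripts than the longest, its fragments are overstated and its interval is too narrow. The calculations were tested on simulated data. All matched members are given; of each other list, up to 4 genes past the floor with the largest ratios were named. Other genes were named after their values were seen. Members and lists were chosen with earlier results of these data known.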

Additional observations from a re-analysis of the deposited data

How the results depend on the processing

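Values were recomputed with other pseudocounts (0.1 and 5), other floors (5 FPKM and none), 3 scalings (median log2 ratio at 0, upper quartiles equal, totals equal) and the length and GC trend taken off. No member was 2-fold apart in either direction, or 1.5-fold lower, under any of these 8. The number of members at least 1.5-fold higher, 1 as reported (Hspb8), was 2 with a pseudocount of 0.1 and at equal totals (Hspb8 and Bag3), where 9.91% and 7.38% of all genes were. It was 0 with a pseudocount of 5, with a median of 0, at equal upper quartiles and at a floor of 5 FPKM, which Hspb8 does not reach. The share of all genes there was 1.04%, 2.54%, 3.37% and 3.98%. The members' median, 0.14 as reported, was 0.18 with a pseudocount of 0.1, 0.079 with one of 5, 0.041 with a median of 0, 0.095 at equal upper quartiles, 0.22 at equal totals, 0.075 at a floor of 5 FPKM (26 members) and 0.062 with the trend taken off. The median of all genes was 0.18 at equal totals and 0.00 with the trend taken off. The log2 ratio changed sign for 6 of the 35 members with a median of 0 (Cct5, Chordc1, Dnajb1, Hsp90aa1, Hspa13 and Tcp1), for 6 with the trend taken off (Chordc1, Dnajb1, Hspa13, Hspe1, Hsph1 and Tcp1), for 3 at equal upper quartiles and for 2 at equal totals. Ratios within a library do not depend on the scaling. No paired analysis was possible because each group has 1 library, which also leaves no replicate to leave out.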
